A study of Saccharomyces cerevisiae W303 with 9 samples.

Results

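Transcripts of yeast cells that lack AIM29 were compared with those of the wild type across all annotated genes, in 6 of the 9 RNA sequencing libraries of the study: 3 of the wild type (strain W303, a laboratory background of Saccharomyces cerevisiae) and 3 of a W303 strain with the genotype aim29 deletion mutant. The members of the comparison are thus whole libraries, chosen by their labels and by no measured value. The other 3 libraries, of the deletion strain with pmTDH3-ZPR1, entered only an alternative fit. Both groups were grown to an optical density of 0.4 to 0.6 in YPD, the usual rich medium with glucose, and poly(A) RNA came from 1 optical density unit of cells per library. A group holds 3 isolates of 1 strain, and the labels do not say how AIM29 was removed, what replaced it, or whether the isolates come from separate transformants, so p-values measure the spread between these isolates.

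Aim29 is a small cytosolic protein that works with Zpr1, a zinc finger chaperone dedicated to folding eEF1A. eEF1A binds GTP and brings aminoacyl-tRNA to the ribosome, and it is among the most abundant proteins of the cell. Aim29 is annotated as the co-chaperone that recognises the GTP-bound form of eEF1A. Its gene name, altered inheritance rate of mitochondria, comes from an earlier screen. Targets of Hsf1, the heat shock factor, and of Gcn4, the activator of amino acid synthesis genes, were the largest known responses in this strain, and the account here turns to the genes beyond them.

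Total counts were 15601784 to 17140665 per wild-type library and 14380639 to 14586083 per deletion library, with every deletion library below every wild-type library, and the part of depth in the results was not tested; 3 counts correspond to 0.172 to 0.213 CPM (counts scaled to library size, with TMM factors here and throughout). Genes varied between wild-type libraries by a biological coefficient of 5.22% and between deletion libraries by 3.76%, against 14.8% in the libraries with pmTDH3-ZPR1. All libraries carried RNA of a cells: the summed level of 7 a-specific genes was 1605 to 1730 CPM in the wild type and 1285 to 1355 CPM in the deletion strain, while 4 alpha-specific genes summed to 33.7 to 37.1 CPM and 29.6 to 31.9 CPM. No nuclear chromosome stood apart as a whole, with the median log2 fold change of its genes between −0.01 and 0.02 on each.

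The first question was which transcripts differ when AIM29 is missing, and how many. Of 5929 features tested, the deletion strain had 837 at a higher (14.1%) and 751 at a lower level (12.7%), at a Benjamini-Hochberg adjusted p under 0.05 by edgeR's quasi-likelihood test, together 26.8%. Most of these differences were small, with a median absolute log2 fold change of 0.25, and 147 genes were at least 1.5-fold higher (2.48%) and 59 at least 1.5-fold lower (0.995%). Of the 147 rises, 24 were in a list of 38 Hsf1 targets and chaperones and 44 in a list of 102 Gcn4 targets and amino acid synthesis genes, which leaves 79 outside both. None of the 59 falls was in either list. The libraries of the groups did not overlap in 2404 genes (40.5%). A fit that also held the more variable libraries with pmTDH3-ZPR1 called 253 genes higher (4.24%) and 129 lower (2.16%) of 5970, all 382 of them among the 1588 above; counts of list members in that fit are given below as the fit of 9. Without composition factors the fit of 6 called 580 genes higher and 1204 lower, so that 32.5% of calls were rises instead of 52.7%, and the median over all genes moved from 0.003 to −0.05.

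The deleted gene was examined first. AIM29 (YKR074W; build R64, chromosome XI, plus strand, 579209 to 579676, 1 annotated exon) was at 75.8, 82.1 and 76.8 CPM in the wild type and at 0.781, 3.86 and 3.63 CPM in the deletion strain. Its log2 fold change was −4.82 ± 0.19 (SE derived from the F statistic of the quasi-likelihood test, n = 3 per group), with an adjusted p of 5.97e-13. Reads remained on AIM29 in every deletion library, with raw counts of 11, 55 and 52, and their source was not tested.

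The features next to AIM29 also differed, and the largest fitted rise of the whole comparison lay there. The lysine tRNA gene tK(UUU)K, which ends 148 bases before AIM29 on the same strand (578965 to 579060, 2 exons), had raw counts of 0, 1 and 3 in the wild type and 91, 134 and 137 in the deletion strain. Its fitted log2 fold change of 6.58 ± 0.41 depends on the prior count, since the wild type was near 0, and every deletion library lay far above the wild type. It was named after its values were seen, and its position is that of the single lysine tRNA gene with anticodon UUU on chromosome XI. YKR073C, an uncharacterised reading frame 701 bases away on the minus strand, had 3.62, 2.46 and 2.79 CPM in the deletion libraries against 0.915, 2.02 and 1.48 CPM in the wild type. YKR075C, a gene similar to the phosphatase regulator gene REG1 whose end lies 150 bases beyond AIM29, had 11.8, 12.2 and 12.6 CPM in the deletion libraries against 6, 6.24 and 6.27 CPM in the wild type. In log2 fold change they were at 1.02 ± 0.29 and 0.98 ± 0.12, and neither group overlapped the other in either gene, but YKR073C lost its call without wild-type replicate 1 or deletion replicate 1. Farther out, SIS2, a subunit gene of a coenzyme A synthesis enzyme, and ECM4 were not called (0.07 ± 0.04 and −0.21 ± 0.09), DRE2 of cytosolic iron-sulfur assembly was at 0.23 ± 0.05, and MSA2, a G1 transcription regulator gene, at −0.46 ± 0.08. The part of the altered locus in these calls was not tested.

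**Figure D1:**
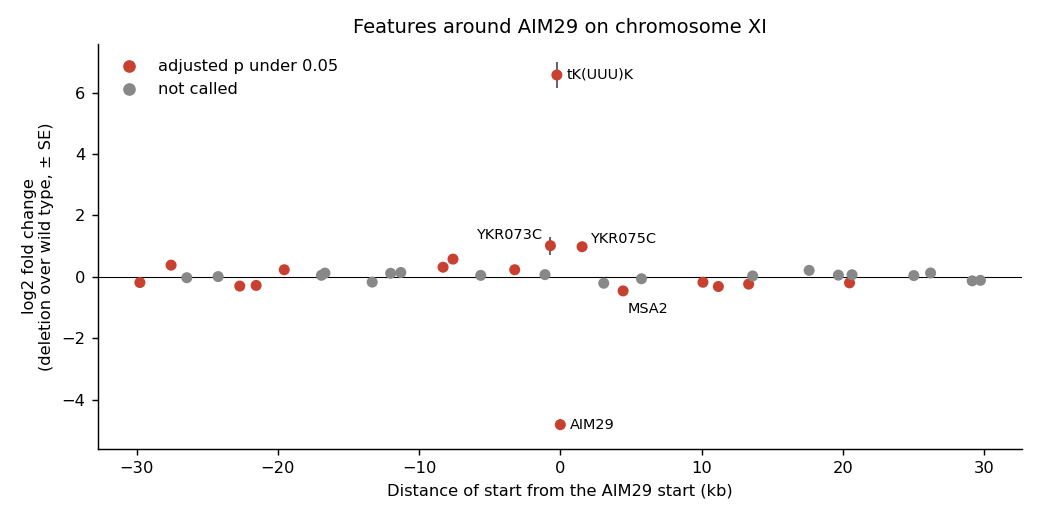
Log2 fold change of the deletion strain over the wild type (y axis, bars are SE, n = 3 per group) for features within 30 kb of AIM29, by the distance of their start from the start of AIM29 (x axis). AIM29 lies at −4.82 and the tRNA gene tK(UUU)K at 6.58, with YKR073C and YKR075C near 1 beside them and the other genes between −0.46 and 0.58.

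Outside the Hsf1 and Gcn4 lists, the 15 largest rises were in genes of varied roles. They were taken among called genes of at least 10 CPM whose groups did not overlap, so a gap between the groups is fixed by that choice. BSC5 and YNR068C, neighbouring reading frames that together form a locus related to BUL1 and BUL2, whose products direct amino acid permeases to ubiquitination, led the list. BSC5 was at 9.78, 8.51 and 8.79 CPM in the wild type and at 42.4, 45.1 and 41.1 CPM in the deletion strain. YNR068C had 24.5, 29.1 and 26.3 CPM in the deletion libraries against 6.29, 5.42 and 7.07 CPM in the wild type. Log2 fold changes of BSC5 and YNR068C were 2.24 ± 0.09 and 2.09 ± 0.11 (adjusted p 7.06e-13 and 8.69e-11 by the quasi-likelihood test). SPO24, which encodes a small protein of sporulation, was at 70.5, 104 and 72.1 CPM in the wild type and at 296, 312 and 320.4 CPM in the deletion strain, a log2 fold change of 1.91 ± 0.10. YHI9, of the PhzF enzyme family, followed at 1.23 ± 0.06.

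GGC1, the mitochondrial GTP/GDP carrier gene, was at 192, 159.6 and 152 CPM in the wild type and at 409, 374 and 377 CPM in the deletion strain. Its log2 fold change was 1.20 ± 0.06. ODC2, the gene of a second mitochondrial carrier, for oxodicarboxylates, had 141, 144 and 146 CPM in the deletion libraries against 79.2, 74.1 and 80.9 CPM in the wild type, a log2 fold change of 0.88 ± 0.05. Enzyme genes with a rise of about 2-fold were ADH5, an alcohol dehydrogenase gene (1.12 ± 0.07), SRY1, which encodes a hydroxyaspartate dehydratase (1.09 ± 0.06), and RIB5, the riboflavin synthase gene (1.03 ± 0.05). RIB5 was at 115, 111 and 119.9 CPM in the wild type and at 223, 247 and 238 CPM in the deletion strain. PKP2, a kinase gene of the pyruvate dehydrogenase complex, was at 0.95 ± 0.08, and the small uncharacterised reading frames YIL014C-A and YER053C-A were at 1.02 ± 0.12 and 0.87 ± 0.12. RTS3, a putative phosphatase component (0.82 ± 0.09), MTH1 (0.80 ± 0.08) and the acid stress gene YRO2 (0.80 ± 0.10) completed the 15 largest.

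Of these 15 promoters, taken as the 500 bases before the start codon, 5 held TGACTCA, the core sequence bound by Gcn4, on either strand, although the genes were not in the Gcn4 list; the motif was in 4% of all 6000 promoters searched and in 0 of the 15 largest falls. The 5 matches are shown with 20 bases on each side in the gene's direction, read from the RefSeq genome of build R64, with the match in capitals (TGAGTCA is the motif on the other strand); these promoters were chosen for display after the values were seen.
BSC5: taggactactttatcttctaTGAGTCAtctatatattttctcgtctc
GGC1: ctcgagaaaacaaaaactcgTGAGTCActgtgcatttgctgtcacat
ADH5: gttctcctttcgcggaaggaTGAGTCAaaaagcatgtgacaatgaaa
PKP2: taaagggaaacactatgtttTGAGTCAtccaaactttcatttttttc
ODC2: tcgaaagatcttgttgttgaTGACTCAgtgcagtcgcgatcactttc
The stretches lie at chrXIV:762983-763029 on the minus strand for BSC5, chrIV:104681-104727 on the minus strand for GGC1, chrII:533515-533561 on the plus strand for ADH5, chrVII:392050-392096 on the plus strand for PKP2 and chrXV:758151-758197 on the plus strand for ODC2. Across the genome 237 tested genes held the motif, of which 99 were higher (41.8%) and 10 lower (4.22%). Of all genes with a promoter 14.3% were higher and 13.2% lower. With the members of both lists left out 52 of 186 genes with the motif were higher, beside 704 of 5549 genes with a promoter. A match is a description of letters and does not show binding.

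**Figure D2:**
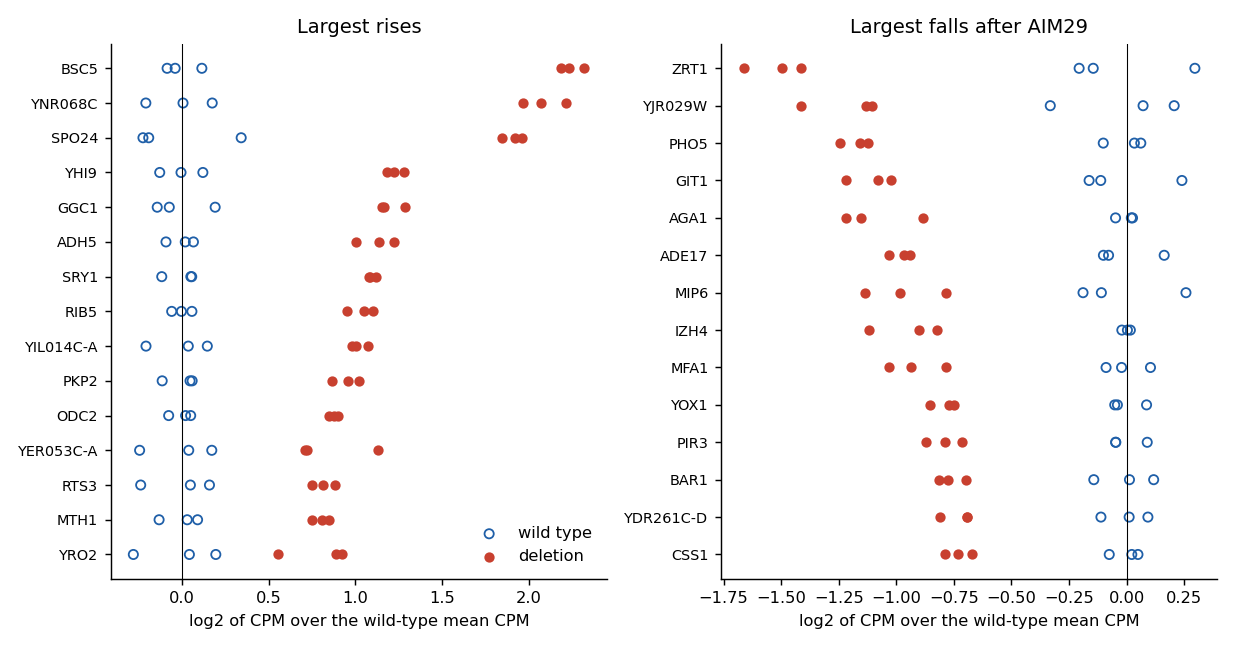
Log2 of CPM over the wild-type mean in each library (x axis) for the 15 largest rises and for the 14 largest falls after AIM29 (y axis), with open circles for the 3 wild-type and filled circles for the 3 deletion libraries. Genes were chosen among those without overlap between the groups, so the gap between open and filled circles in each gene is fixed by the choice.

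After AIM29 the largest falls, chosen by the same rule (at least 10 CPM and no overlap between the groups), were ZRT1, YJR029W, PHO5 and GIT1. YJR029W and YDR261C-D, reading frames of Ty retrotransposons, were at −1.21 ± 0.14 and −0.73 ± 0.09, but 0% and 0.63% of their 50-base windows occur once in the genome, so their reads cannot be told from those of other copies. ZRT1, the high-affinity zinc transporter gene, was at 379, 279 and 268 CPM in the wild type and at 116, 97.5 and 109 CPM in the deletion strain. The wild type was 2.87-fold higher, with a log2 fold change of −1.52 ± 0.10 (adjusted p 6.74e-10 by the quasi-likelihood test). IZH4, a membrane protein gene linked to zinc, had 15.3, 12.4 and 14.4 CPM in the deletion libraries against 27.1, 26.6 and 27.3 CPM in the wild type (−0.94 ± 0.09). In the list of 21 zinc genes 7 fell and 2 rose (4 fell in the fit of 9), with a median of −0.03 beside 0.003 over all genes. ZAP1, the zinc-responsive activator of ZRT1, was at −0.34 ± 0.08 and MCD4, a GPI anchor synthesis gene, at −0.38 ± 0.05.

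The zinc-responsive element, searched on both strands as ACCTT and AAGGT with 1 base of any kind between them, occurred in 9 tested promoters, 0.150% of those searched. Of these genes 3 fell (33.3%, beside 13.2% of all genes with a promoter) and 0 rose. ZRT1 and MCD4 carry it as follows, with the match in capitals.
ZRT1: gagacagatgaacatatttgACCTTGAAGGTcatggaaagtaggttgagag
MCD4: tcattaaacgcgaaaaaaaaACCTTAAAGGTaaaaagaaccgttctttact
The stretches lie at chrVII:20754-20804 on the plus strand for ZRT1 and chrXI:140765-140815 on the minus strand for MCD4. The third gene of the zinc list with the element, ZRG17, was not called.

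Of 28 phosphate genes 11 fell and 3 rose, and 3 fell in the fit of 9. PHO5, the secreted acid phosphatase gene, was at 564, 554 and 504 CPM in the wild type and at 248, 228 and 243 CPM in the deletion strain, with a log2 fold change of −1.17 ± 0.05. GIT1, the permease gene for glycerophosphoinositol and glycerophosphocholine, had 20.9, 23 and 24 CPM in the deletion libraries against 57.5, 43.5 and 45 CPM in the wild type, and was at −1.10 ± 0.10. Both genes were chosen among those without overlap between the groups. PHO11, another acid phosphatase gene, was at −0.62 ± 0.06, but no more than 11.7% of its 50-base windows occur once in the genome, and reads of close copies cannot be told apart. PHM6, a phosphate-regulated gene of unknown role, was at −0.49 ± 0.09, while the list as a whole had a median of −0.05. The element CACGTG, bound by Pho4, was in 16 of the 28 promoters; 8 of those 16 genes fell and 0 rose, against 3 and 3 of the other 12. It stands once in the PHO5 promoter window, shown because PHO5 is the largest fall of the list.
PHO5: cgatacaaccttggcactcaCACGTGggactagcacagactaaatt
The stretch lies at chrII:431179-431224 on the minus strand for PHO5. Over all genes with CACGTG, 62 of 354 rose (17.5%) and 47 fell (13.3%). Of all genes with a promoter 14.3% rose and 13.2% fell, so over the genome the element did not go with falls.

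Iron genes were called about as often as genes in general or less. Of 33 members 3 rose (9.09%, beside 14.1% over all genes) and 4 fell (12.1%, beside 12.7%), with 1 fall without deletion replicate 1 and by DESeq2, 2 without deletion replicate 3, and 1 rise and 0 falls in the fit of 9. FTR1, the iron permease gene, was at 499.6, 275 and 364 CPM in the wild type and at 264, 283 and 280.2 CPM in the deletion strain, and its highest value was in wild-type replicate 1. FET3, its ferroxidase partner, had 164, 198 and 215 CPM in the deletion libraries against 292, 195 and 294 CPM in the wild type. The groups overlapped in both, and both lost their calls (−0.46 ± 0.13 and −0.44 ± 0.11) without deletion replicate 1. ISU1, the iron-sulfur scaffold gene, was at 0.42 ± 0.08. Of 9 copper genes only FRE7 was called higher (0.64 ± 0.23), its libraries overlapped too, and it lost its call when single libraries were left out.

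Genes of the G1 to S transition fell. In budding yeast the factors SBF and MBF switch on G1 cyclins and DNA synthesis genes in late G1. Of 23 control genes 13 fell and 1 rose, with a median of −0.25, and 11 fell in the fit of 9. In bulk RNA, fewer cells in a stage of the cycle and less RNA per cell cannot be told apart. YOX1, the gene of a homeobox repressor of M to G1 genes, was at 47.5, 51.9 and 47.1 CPM in the wild type and at 29.1, 28.6 and 27.1 CPM in the deletion strain, a log2 fold change of −0.79 ± 0.07. CLN2, a G1 cyclin gene, had 132, 133 and 142 CPM in the deletion libraries against 208, 214 and 206 CPM in the wild type, and CLN1 and the S-phase cyclin gene CLB6 were at −0.69 ± 0.06 and −0.66 ± 0.10. No deletion library reached the wild-type range in CLN2, CLN1 and CLB6, and for YOX1 this is fixed by the rule that chose it.

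Promoters were also searched for the letters that MBF and SBF bind. The MBF element ACGCGT was in 5.42% of promoters, and of 316 tested genes with it 80 fell (25.3%) and 29 rose (9.18%), with a median of −0.06. The SBF element CGCGAAA was in 5.82%, and 77 of 340 fell (22.6%) and 24 rose (7.06%). Of all genes with a promoter 13.2% fell and 14.3% rose. In the control list the 4 genes with ACGCGT (CLB6, HCM1, MSA2 and YOX1) all fell, against 9 of 19 without it. MSA2 lies 3976 bases from AIM29, and the part of the altered locus in its fall was not tested. With CGCGAAA 5 of 8 genes of the control list fell (median −0.26), against 8 of 15 without it (−0.25). CLB6, MSA2 and HCM1 are printed because they hold the element at 2 places, and TOS4 and PCL1 for the SBF element, with matches in capitals (TTTCGCG is the SBF element on the other strand).
CLB6: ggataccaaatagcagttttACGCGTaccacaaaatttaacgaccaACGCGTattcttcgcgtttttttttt
MSA2: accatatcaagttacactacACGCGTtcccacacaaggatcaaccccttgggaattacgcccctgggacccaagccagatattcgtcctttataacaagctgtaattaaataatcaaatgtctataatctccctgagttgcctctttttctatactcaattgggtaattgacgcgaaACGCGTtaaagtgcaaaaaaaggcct
HCM1: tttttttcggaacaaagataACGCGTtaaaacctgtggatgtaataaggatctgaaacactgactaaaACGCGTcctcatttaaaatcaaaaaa
TOS4: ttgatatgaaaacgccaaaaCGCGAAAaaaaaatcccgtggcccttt
PCL1: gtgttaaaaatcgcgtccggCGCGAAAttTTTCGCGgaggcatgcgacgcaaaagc
The stretches lie at chrVII:706853-706924 on the minus strand for CLB6, chrXI:583301-583503 on the plus strand for MSA2, chrIII:228972-229065 on the plus strand for HCM1, chrXII:522213-522259 on the minus strand for TOS4 and chrXIV:87574-87629 on the plus strand for PCL1. HCM1, a forkhead activator gene, was at −0.37 ± 0.06, TOS4, a gene of a chromatin-bound protein of late G1, at −0.51 ± 0.06 and the cyclin gene PCL1 at −0.33 ± 0.06.

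Of 51 DNA replication genes 18 fell and 1 rose (7 fell in the fit of 9). With ACGCGT in the promoter 16 of 26 fell, with a median of −0.20, and without it 2 of 25, with a median of −0.009. POL1, the catalytic subunit gene of DNA polymerase alpha, was at 139, 139 and 137 CPM in the wild type and at 101, 101 and 108 CPM in the deletion strain (−0.42 ± 0.04). Its partner gene POL12 was at −0.39 ± 0.06 and the thymidylate synthase gene CDC21 at −0.37 ± 0.07, while PSF2 of the GINS complex was the 1 member that rose (0.36 ± 0.07). Of 13 cohesion genes 6 fell, all with the element, and 3 fell in the fit of 9. MCD1, the cohesin subunit cleaved at anaphase, had 83.4, 90.9 and 82.2 CPM in the deletion libraries against 115, 123 and 119 CPM in the wild type (−0.47 ± 0.05), and SMC3 and PDS5 were at −0.41 ± 0.05 and −0.37 ± 0.05. Among 21 genes of ribonucleotide reductase and the damage response 7 fell (2 in the fit of 9), with the large subunit gene RNR1 at −0.51 ± 0.04, the mismatch repair gene MSH6 at −0.42 ± 0.05, the checkpoint kinase gene RAD53 at −0.31 ± 0.07 and the small subunit gene RNR4 at −0.24 ± 0.04.

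Lists of later stages of the cycle differed from each other. Of 27 genes of the mitotic CLB2 cluster 6 rose and 0 fell (1 rose in the fit of 9 and 3 without composition factors), with MYO1, the type II myosin gene of the cytokinetic ring, at 0.30 ± 0.05 and the kinase gene KIN3 at 0.31 ± 0.06. Of 29 kinetochore and spindle pole genes 2 rose and 2 fell (6.90% each). Of 10 histone genes 2 rose (20%), HHF1 (0.19 ± 0.05) and HTA2 (0.15 ± 0.04). The linker histone gene HHO1 fell (10% of the list, −0.22 ± 0.05). Over all genes 14.1% rose and 12.7% fell. Among 19 daughter cell and M to G1 genes 6 rose, 3 without deletion replicate 3, and 3 fell, with RME1, a repressor of meiosis, at 0.37 ± 0.05, the mating type endonuclease gene HO at −0.37 ± 0.06 and the filamentation activator gene TEC1 at −0.49 ± 0.06. Of 26 genes of septins, polarity and bud growth 8 fell and 0 rose (5 fell in the fit of 9 and 13 without composition factors). GIN4 and HSL1, which encode bud neck kinases, were at −0.43 ± 0.04 and −0.42 ± 0.04, their downstream kinase gene SWE1 at −0.41 ± 0.06 and the mucin sensor gene MSB2 at −0.43 ± 0.05.

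Mating genes of a cells fell. Of 7 a-specific genes 6 fell and 0 rose, with a median of −0.30, and 2 fell in the fit of 9. The fall was not limited to them: of 4 alpha-specific genes 2 fell and 0 rose, among them SAG1 (−0.25 ± 0.08). In the fit of 9 the alpha-specific falls numbered 0. MFA1, which encodes the a-factor pheromone, was at 59.2, 64.6 and 56.5 CPM in the wild type and at 31.4, 29.4 and 34.9 CPM in the deletion strain. BAR1, the protease that degrades alpha factor, had 154, 142 and 146 CPM in the deletion libraries against 226, 270.4 and 251 CPM in the wild type. MFA1 and BAR1, chosen among genes without overlap between the groups, had log2 fold changes of −0.91 ± 0.08 and −0.76 ± 0.06. The pheromone gene MFA2 and the receptor gene STE2 were at −0.30 ± 0.05 and −0.28 ± 0.04. Of 26 pheromone response genes 9 fell and 2 rose (2 fell in the fit of 9). AGA1, the cell wall anchor of a-agglutinin, was at 46.6, 44.4 and 46.8 CPM in the wild type and at 20.6, 19.7 and 24.9 CPM in the deletion strain (−1.08 ± 0.08), and SST2, which turns off the pheromone G protein, was at −0.44 ± 0.04, whereas the membrane protein gene PRM5 rose by 0.56 ± 0.06. Of 26 meiosis and sporulation genes, most of them at low levels, 7 fell, 3 without deletion replicate 3 (2 in the fit of 9), among them MIP6, an mRNA-binding protein gene (−0.96 ± 0.14), and 2 rose.

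Purine and pyrimidine genes fell in part, and several cofactor genes rose. Of 29 purine and one-carbon genes 16 fell and 6 rose, with a median of −0.15; 4 fell in the fit of 9. ADE17, whose product makes the last steps to inosine monophosphate, was at 623, 518 and 527 CPM in the wild type and at 289.5, 285 and 272 CPM in the deletion strain. Its log2 fold change was −0.98 ± 0.06 (adjusted p 1.22e-10 by the quasi-likelihood test). ADE1 and ADE13, of earlier and shared steps of the pathway, were at −0.63 ± 0.04 and −0.57 ± 0.04. The rises were of another kind: GCV1, a subunit gene of the glycine cleavage enzyme that feeds one-carbon units, had 112, 122 and 128 CPM in the deletion libraries against 92, 83.2 and 80.2 CPM in the wild type (0.50 ± 0.06). Of 15 pyrimidine genes 7 fell, 4 without deletion replicate 2, and 0 rose (2 fell in the fit of 9), with the dihydroorotate dehydrogenase gene URA1 at −0.55 ± 0.05, URA3 at −0.42 ± 0.05 and the CTP synthase gene URA7 at −0.26 ± 0.04.

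Of 18 NAD synthesis genes 6 rose and 0 fell (2 rose in the fit of 9). BNA1, a dioxygenase gene of the route from tryptophan that is also in the Gcn4 list, was at 52.7, 48.2 and 45.4 CPM in the wild type and at 108, 103 and 102 CPM in the deletion strain, a log2 fold change of 1.09 ± 0.06 with no overlap. The mitochondrial NADH kinase gene POS5 was at 0.42 ± 0.05. Among 16 biotin and vitamin B6 genes 5 rose and 1 fell (4 rose in the fit of 9). SNZ1 and SNO1 are in the Gcn4 list too. SNZ1, of pyridoxal phosphate synthesis, had 83.5, 85.5 and 88.7 CPM in the deletion libraries against 46.1, 35 and 42 CPM in the wild type (1.06 ± 0.08), its partner gene SNO1 was at 0.51 ± 0.09 and PDX3 at 0.51 ± 0.04. Of 18 thiamine genes 1 rose and 1, the transporter gene THI7 (−0.49 ± 0.08), fell. Each is 5.56% of the list, beside 14.1% higher and 12.7% lower over all genes.

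**Figure D3:**
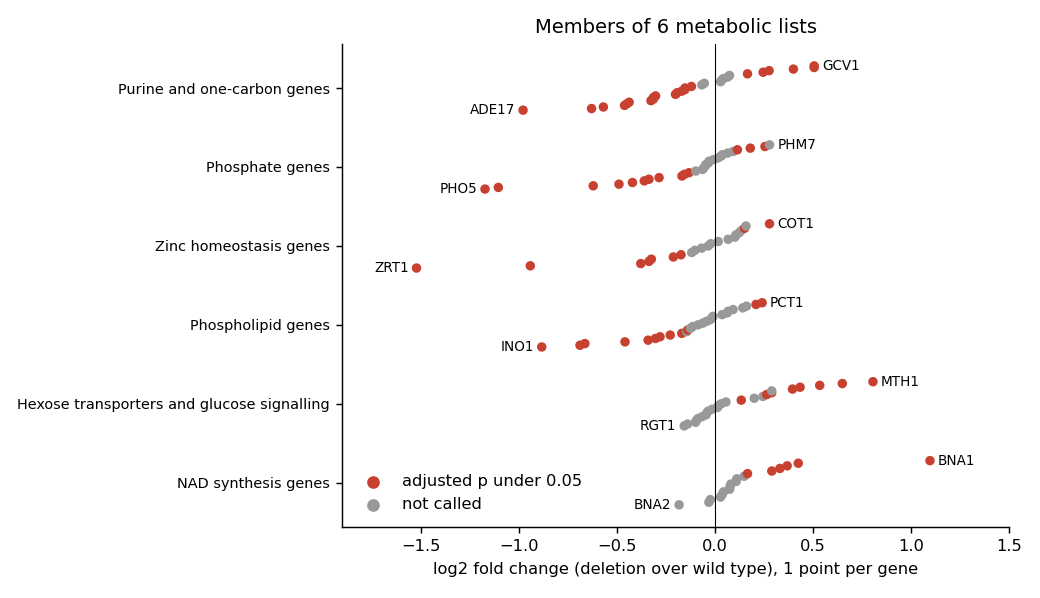
Log2 fold change of the deletion strain over the wild type (x axis) for each tested member of 6 metabolic lists (y axis; 1 point per gene, ordered by value within a list), with red for an adjusted p under 0.05. ZRT1 (−1.52) and BNA1 (1.09) lie apart from the other members of their lists, as do PHO5 and GIT1 (−1.17 and −1.10) together. In the purine list 18 members lie below 0 and 11 above.

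Amino acid uptake and glucose transport genes rose in part. Of 31 amino acid and peptide permease genes 10 rose and 1 fell (3 rose in the fit of 9, and 5 rose and 2 fell without composition factors). BAP2, a permease gene for branched-chain amino acids, was at 289.9, 285 and 273 CPM in the wild type and at 478, 470.1 and 488 CPM in the deletion strain. BAP3, its close relative, had 352, 364 and 362 CPM in the deletion libraries against 217, 229 and 212 CPM in the wild type. Both groups were tight and apart, at 0.76 ± 0.04 and 0.71 ± 0.04, while the arginine permease gene CAN1 and the glutamine permease gene GNP1 were at 0.26 ± 0.05 and 0.24 ± 0.03. Of 33 nitrogen catabolite repression genes 6 rose (18.2%) and 5 fell (15.2%), near the 14.1% and 12.7% over all genes, and 2 fell without deletion replicate 3. GLN3, an activator gene of that system, was at 0.43 ± 0.06 and the proline utilisation activator gene PUT3 at 0.53 ± 0.05. Of 19 genes of permease sorting and arrestins the risers were BSC5, YNR068C and the kinase gene NPR1 (0.15 ± 0.05), which lost its call when single libraries were left out.

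Of 25 genes of hexose transport and glucose signalling 8 rose and 0 fell (3 rose in the fit of 9), though the list median was 0.03 and −0.02 without composition factors. MTH1, whose product represses hexose transporter genes when glucose is scarce, was at 20.8, 24.2 and 23.2 CPM in the wild type and at 41, 38.2 and 39.8 CPM in the deletion strain (0.80 ± 0.08). HXT3, a low-affinity transporter gene, had 1742, 1501 and 1601 CPM in the deletion libraries against 897, 1183 and 1011 CPM in the wild type, a log2 fold change of 0.65 ± 0.07, and HXT4 and HXT2 were at 0.53 ± 0.11 and 0.43 ± 0.07. The deletion libraries lay above the wild type in HXT3, HXT4 and HXT2, and for MTH1 this is fixed by the rule that chose it. In glycolysis and fermentation 6 of 22 rose and 2 fell (1 rose in the fit of 9): ALD6, the cytosolic acetaldehyde dehydrogenase gene, was at 948, 714 and 845 CPM in the wild type and at 505, 578 and 509.6 CPM in the deletion strain (−0.65 ± 0.07), and the minor pyruvate decarboxylase gene PDC5 was at −0.42 ± 0.08. Of 21 gluconeogenesis and glyoxylate genes 5 fell, 2 without deletion replicate 3, 3 without deletion replicate 2 or wild-type replicate 1 or 2 and by DESeq2, and 0 in the fit of 9, and their activator gene ADR1 rose by 0.49 ± 0.09.

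Of 29 tricarboxylic acid cycle and retrograde response genes 10 rose and 0 fell (3 rose in the fit of 9). The isocitrate dehydrogenase genes IDP1 and IDH2 were at 0.45 ± 0.04 and 0.32 ± 0.05 and the pyruvate carboxylase gene PYC2 at 0.43 ± 0.05. Of 20 glycerol and osmotic stress genes 6 rose (2 in the fit of 9), with GPD1, which starts glycerol synthesis, at 0.44 ± 0.07, GPP2 of its second step at 0.33 ± 0.06 and GUT2 of glycerol breakdown at 0.38 ± 0.07. General stress genes of Msn2 and Msn4 (2 higher and 1 lower of 27), glycogen and trehalose genes (3 and 2 of 19) and galactose and maltose genes (3 and 0 of 15) are to be read beside 14.1% higher and 12.7% lower over all genes. In the glycogen and trehalose list 6 fell without wild-type replicate 1, 5 fell without composition factors and 5 rose without wild-type replicate 2, and the fit of 9 called 0 members.

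Phospholipid genes fell in part and sphingolipid genes rose in part. Of 27 phospholipid genes 10 fell and 2 rose (5 fell in the fit of 9). OPI3, the methyltransferase that completes phosphatidylcholine, was at 86.1, 87.5 and 83.3 CPM in the wild type and at 53.5, 56.7 and 49.1 CPM in the deletion strain, a log2 fold change of −0.69 ± 0.06. PLB2, a phospholipase gene, had 85.1, 80.7 and 80.9 CPM in the deletion libraries against 128, 132 and 130.4 CPM in the wild type (−0.66 ± 0.05), and the groups were apart in both. INO1, the inositol synthase gene, had a mean below 10 CPM and was at −0.88 ± 0.16, PSD1, a phosphatidylserine decarboxylase gene, at −0.46 ± 0.06 and the choline kinase gene CKI1 at −0.34 ± 0.07. Of 24 sphingolipid genes 11 rose and 1 fell, but 1 rose in the fit of 9 and 5 to 7 without deletion replicate 2 or 3 or any one wild-type library, 6 by DESeq2 and 4 without composition factors. YPC1, a ceramidase gene, was at 12.2, 13.6 and 12.3 CPM in the wild type and at 19.2, 22.3 and 18.8 CPM in the deletion strain (0.66 ± 0.10), and TSC3, a subunit gene of serine palmitoyltransferase, was at 0.44 ± 0.05. Of 25 fatty acid genes 7 fell (1 in the fit of 9), with the fatty acid synthase gene FAS1 at −0.26 ± 0.04 and the acetyl-CoA carboxylase gene ACC1 at −0.27 ± 0.04. Of 31 ergosterol genes 5 rose (16.1%) and 6 fell (19.4%), near the 14.1% and 12.7% over all genes, with a median of 0.003. ERG6 was at −0.30 ± 0.04 and ERG2 at 0.22 ± 0.04. The ergosterol rises numbered 3 without any one of 5 libraries, 1 without composition factors and 0 in the fit of 9, where the falls numbered 1.

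Genes of eEF1A and its helpers differed by small amounts. ZPR1, the chaperone gene, was at 329, 321 and 336 CPM in the wild type and at 444, 399 and 419.9 CPM in the deletion strain, a log2 fold change of 0.36 ± 0.04 with no overlap. The eEF1A gene TEF1 was not called (−0.08 ± 0.03) and TEF2 was (0.13 ± 0.03), but 7.53% of 50-base windows occur once in the genome, and the pair can hardly be told apart. Of 24 elongation and termination factor genes 2 rose, TEF2 and ZPR1, and 6 fell, 2 or 3 without deletion replicate 2 or 3 or wild-type replicate 3 and 1 in the fit of 9, but 15 without composition factors. EFM6 and EFM4, which encode methyltransferases of eEF1A, were at −0.46 ± 0.10 and −0.16 ± 0.05, and EFM4 lost its call when single libraries were left out. Of 32 initiation factor genes 11 fell, 7 without deletion replicate 2 or 3 and 1 in the fit of 9, but 22 without composition factors, with SUI2, the eIF2 alpha subunit gene, at −0.20 ± 0.04. Of 23 aminoacyl-tRNA synthetase genes 6 rose (1 in the fit of 9), led by KRS1 for lysine, which had 1766, 1675 and 1720 CPM in the deletion libraries against 1412, 1383 and 1384 CPM in the wild type (0.30 ± 0.03).

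Ribosome genes moved by small amounts and in opposite directions. Of 84 ribosome biogenesis genes, which act in the nucleolus and nucleus, 65 fell and 0 rose, with a median of −0.17, and the fit of 9 called 4. By library the list median relative to the wild-type mean was −0.12, −0.22 and −0.15 in the deletion strain and 0.01, −0.04 and 0.03 in the wild type, so deletion replicate 2 was the lowest. NUG1, a GTPase gene of large subunit export, was at 482, 454 and 477 CPM in the wild type and at 395, 377 and 395 CPM in the deletion strain (−0.28 ± 0.04), and RRP1 was at −0.29 ± 0.05. Of 37 RNA polymerase I and III genes 11 fell and 2 rose; 5 fell without deletion replicate 2, 7 without wild-type replicate 3 and 0 in the fit of 9. Of 138 cytosolic ribosomal protein genes 58 rose and 1 fell, with a median of 0.09, 38 rose without composition factors and 13 in the fit of 9. RPS21A had 1162, 1317 and 1233 CPM in the deletion libraries against 923, 977 and 951 CPM in the wild type (0.38 ± 0.04) and RPL29 was at 0.38 ± 0.04.

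Mitochondrial lists moved against each other. Of 70 mitochondrial ribosomal protein genes 37 fell and 0 rose, with a median of −0.19 (7 in the fit of 9). Deletion libraries had list medians of −0.20, −0.22 and −0.20, against 0.08, 0.003 and −0.09 in the wild type. MRPS35 was at 104, 97.2 and 91.2 CPM in the wild type and at 72, 76.3 and 73.5 CPM in the deletion strain (−0.40 ± 0.05). Of 36 mitochondrial import genes 11 fell (0 in the fit of 9), such as the receptor gene TOM20 (−0.22 ± 0.05), while ERV1 of intermembrane space import rose by 0.44 ± 0.06. Of 41 nuclear oxidative phosphorylation genes 19 rose and 1 fell, with a median of 0.12, but 12 rose without wild-type replicate 3 and 0 in the fit of 9, and 11 without composition factors. COX7, of cytochrome oxidase, had 83.2, 111 and 100 CPM in the deletion libraries against 69.9, 76.5 and 75.3 CPM in the wild type (0.41 ± 0.08), with deletion replicate 1 nearest to the wild type. Medians of the 4 mitochondrially encoded genes tested were 0.15, 0.75 and 0.62 in the deletion strain. In the wild type they were −0.20, −0.06 and 0.19, so the groups overlapped. OLI1 (0.58 ± 0.14) and COX1 (0.50 ± 0.12) were called all the same, COX1 not without deletion replicate 2. The libraries were of poly(A) RNA, and the part of that selection in the levels of mitochondrially encoded transcripts was not tested.

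The log2 fold change also went with gene length, by small amounts. Over protein-coding genes the median log2 fold change went from 0.08 for genes of up to 300 bases (n = 211) to −0.03 for genes over 3000 bases (n = 517). The median lengths were 444 bases for the oxidative phosphorylation list, 771 for the cytosolic and 706.5 for the mitochondrial ribosomal protein genes, and 1527 for ribosome biogenesis. The mitochondrial ribosomal protein genes lay against the length trend, at a median of −0.19 beside 0.03 for genes of over 500 to 1000 bases. After subtraction of the median of genes of like length, an alternative chosen after seeing the data, the medians were 0.10, 0.07, −0.22 and −0.16 in the same order, each with its sign kept.

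**Figure D4:**
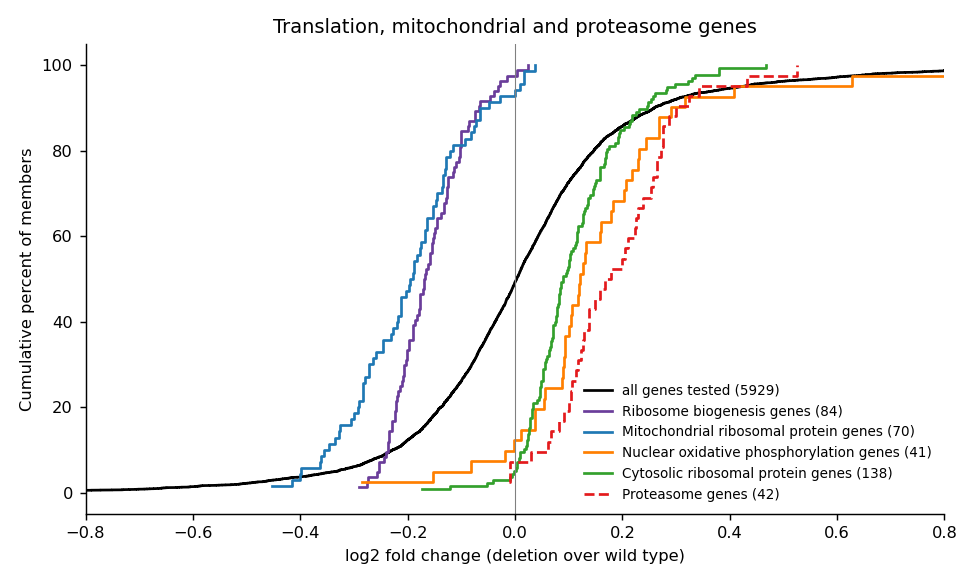
Cumulative percent of members (y axis) by log2 fold change of the deletion strain over the wild type (x axis) for all 5929 genes tested and 5 lists. The curves of ribosome biogenesis and mitochondrial ribosomal protein genes lie left of that of all genes through most of their range, with medians of −0.17 and −0.19, and those of cytosolic ribosomal protein, oxidative phosphorylation and proteasome genes lie right of it, with medians of 0.09, 0.12 and 0.17.

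Proteasome genes rose. Of 42 proteasome genes 31 rose and 0 fell, 13 in the fit of 9 and 20 without composition factors. SEM1, of the regulatory particle, was at 80.5, 88 and 88.6 CPM in the wild type and at 112, 138 and 119 CPM in the deletion strain (0.53 ± 0.07), the assembly factor genes POC4 and UMP1 were at 0.43 ± 0.10 and 0.32 ± 0.05 and the core subunit gene SCL1 at 0.34 ± 0.04. The Rpn4 element GGTGGCAAA was in 27 of the 42 promoters, of which 21 rose, and 10 of the 15 without it rose too; the median was 0.16 with and 0.21 without. Over all genes 44 of 97 with this element rose (45.4%, beside 14.3% of all genes with a promoter). Of 35 ubiquitin pathway genes 14 rose (6 in the fit of 9), with the stress zinc finger genes TMC1 and CUZ1 at 0.58 ± 0.06 and 0.39 ± 0.05 and the conjugating enzyme gene UBC5 at 0.49 ± 0.09. Autophagy genes (3 higher and 1 lower of 29), vacuolar proteases (4 and 2 of 12) and V-ATPase genes (5 and 0 of 17) were called in part. The V-ATPase rises numbered 3 without wild-type replicate 2. Autophagy genes were called less often than genes in general, at 10.3% higher and 3.45% lower beside 14.1% and 12.7%. Shares were 33.3% and 16.7% for the vacuolar proteases and 29.4% and 0% for the V-ATPase genes. None of the 3 lists had a rise in the fit of 9, the autophagy rises numbered 0 without deletion replicate 2 or 3 or wild-type replicate 3, and the vacuolar protease rises numbered 2 without deletion replicate 2 or wild-type replicate 3. Without composition factors the rises were 0, 1 and 2 in the same order. The protease inhibitor gene PBI2 was at −0.52 ± 0.07.

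At the cell surface, 15 of 49 cell wall genes fell and 8 rose, with 2 falls and 1 rise in the fit of 9. PIR3, a heat shock-linked wall mannoprotein gene, was at 63.3, 69.6 and 63.3 CPM in the wild type and at 39.9, 37.9 and 35.8 CPM in the deletion strain (−0.79 ± 0.07). SCW10, of the glucanase family, had 253, 267 and 265 CPM in the deletion libraries against 366, 364 and 357 CPM in the wild type (−0.47 ± 0.04), and SVS1 was at −0.50 ± 0.05, each without overlap, whereas the mannoprotein gene TIR3 rose by 0.55 ± 0.10. CSS1, a wall glycoprotein gene, was among the largest falls at −0.73 ± 0.05. Of 21 drug resistance transporter genes 5 rose, 3 without deletion replicate 3 (1 in the fit of 9). SNQ2, an ABC transporter gene, was at 186, 334 and 339.9 CPM in the wild type and at 425, 447 and 434 CPM in the deletion strain (0.61 ± 0.13), so that wild-type replicate 1 was far below the others, and QDR3 was at 0.61 ± 0.05. In the endoplasmic reticulum 6 of 44 genes rose (13.6%) and 8 fell (18.2%), beside 14.1% and 12.7% over all genes. The rises were 3 without deletion replicate 2, and the falls 14 without composition factors. LHS1, a chaperone gene, was at −0.35 ± 0.04 and the protein disulfide isomerase gene MPD1 at −0.47 ± 0.08. In the oxidative stress list 6 of 29 were higher (20.7%) and 3 lower (10.3%), beside 14.1% and 12.7% over all genes. The falls numbered 7 without composition factors and 5 without deletion replicate 1. The list included the regulator gene YAP1 (0.31 ± 0.04) and ZWF1, which feeds the pentose phosphate pathway (0.37 ± 0.05).

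**Figure D5:**
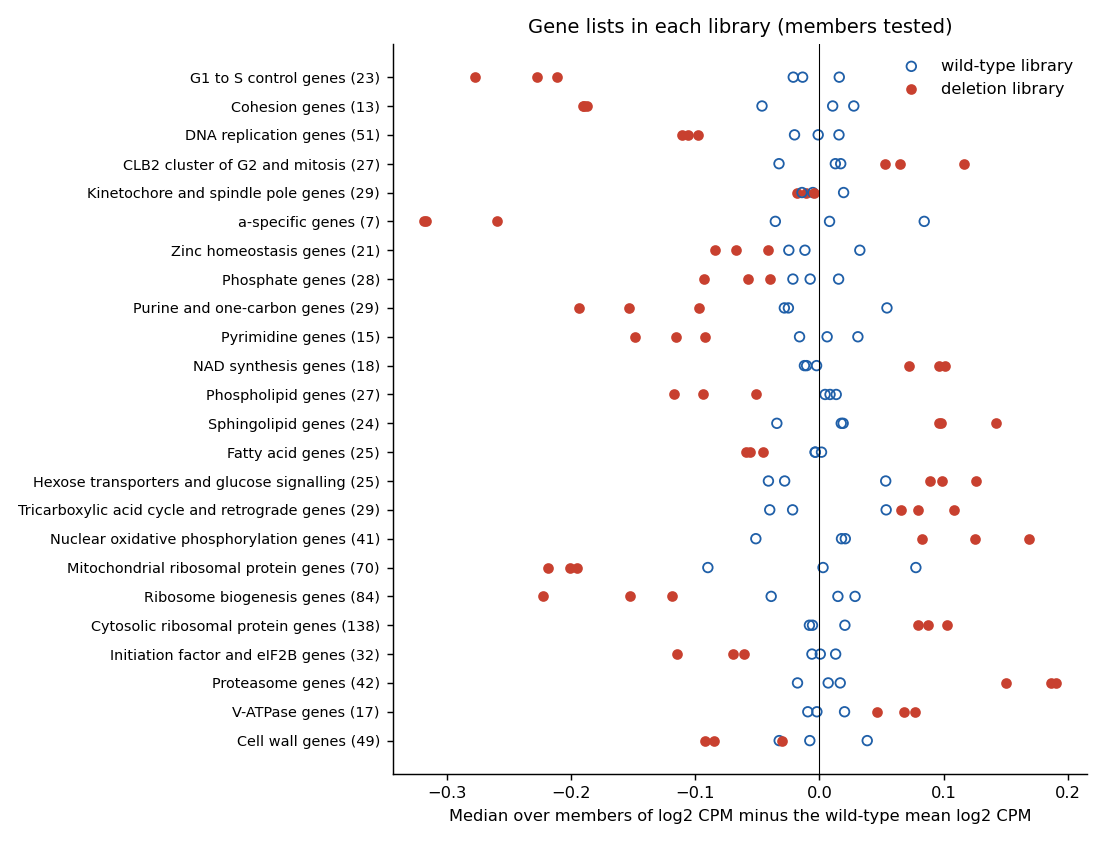
Median over the members of a list of log2 CPM minus the wild-type mean log2 CPM (x axis) in each of 3 wild-type (open) and 3 deletion libraries (filled), for 24 lists (y axis, members tested in parentheses). Deletion libraries lie to the left of the wild type for G1 to S control genes (−0.21 to −0.28) and to the right for proteasome genes (0.15 to 0.19), while kinetochore genes overlap.

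For scale, the medians of the lists set aside lay farther from 0 than those of the other lists, with 1 exception. The 4 mitochondrially encoded genes tested had a median of 0.54, above that of the Gcn4 list. The share of members called was not always larger, with 77.4% of ribosome biogenesis genes lower and 73.5% of the Gcn4 list higher. Of the 38 Hsf1 targets and chaperones 32 rose and 0 fell, with a median of 0.64, and of the 102 Gcn4 targets and amino acid synthesis genes 75 rose and 6 fell, with a median of 0.52. Of the genes outside both, 730 were higher and 745 lower. ARO5 was at 22.6, 20.8 and 19.7 CPM in the wild type and at 145, 148 and 145 CPM in the deletion strain, the largest rise of the Gcn4 list at 2.79 ± 0.06.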

How the data were processed

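The authors deposited raw counts, as whole numbers of reads for each annotated feature in each library, without normalisation. Per the submitters' processing notes the tools were FastQC 0.11.5, STAR 2.7.0 and DESeq2 1.34.0, with build R64. Which tool counted reads, with which strand setting and what was done with reads of repeated sequence, is not given in the sources used here, so values of overlapping, antisense and near-identical genes are uncertain. Groups and replicate numbers came from the sample titles.

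The table holds 7127 features, of which 393 were at 0 in all libraries; 6088 matched the RefSeq annotation of build R64, which gave positions and promoters. Libraries of the wild type and the deletion strain were fitted alone with edgeR 4.0.16 in R 4.3.3 (filterByExpr, TMM factors, glmQLFit, glmQLFTest, group as the only term, 4 residual degrees of freedom), because the libraries with pmTDH3-ZPR1 vary more, and Benjamini-Hochberg adjustment ran over the 5929 features tested. The standard error (SE) beside a log2 fold change was derived from the test, as the absolute log2 fold change over the square root of the quasi-likelihood F statistic. It is least certain for features near 0 counts. A prior count of 2 was added for log2 CPM. On simulated counts of this comparison, the procedure found all 100 genes set to a 1.5-fold change and all 100 set to a 2-fold change. There were 9 false calls among 5915 genes. The changed genes all had a wild-type mean of at least 10 CPM, and every gene had the same biological coefficient of variation (4.58%). Recovery of lower genes, or under the gene-by-gene spread of the real libraries, was not tested.

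The comparison, the 67 gene lists and the motifs were chosen with earlier results of these data known, so lists are described by counts and medians and carry no test; lists may share members. Named genes are AIM29, ZPR1, the nearest 3 protein-coding genes on either side of AIM29, the 15 largest rises and falls among called genes of at least 10 CPM without overlap and outside the Hsf1 and Gcn4 lists, and per list up to 4 called members with the largest change; 1 gene under this rule is not reported here, and others were chosen after their values were seen. The chi-square of counts between pairs of replicate libraries was 2.93 to 8.98 per degree of freedom, above sampling noise, so no library is a copy of another. It cannot tell separate cultures from repeated libraries of 1 culture. Each library was counted as 1 sample. Results were recomputed with DESeq2 1.42.0, limma-voom (limma 3.58.1), median-ratio or no composition factors, no filter or one of 100 counts in 3 libraries, all 9 libraries, the replicate block, an adjusted p under 0.01 and leaving out each library. Annotation and figures were made with Python 3.11.15.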

Additional observations from a re-analysis of the deposited data

How the results depend on the processing

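The counts of genes higher and lower, and of those at least 1.5-fold higher and lower, were 837, 751, 147 and 59. They stayed within 1.5 times of these with median-ratio factors, no filter, DESeq2 and limma-voom. Without composition factors 1204 were lower; with at least 100 counts in 3 libraries 39 were at least 1.5-fold lower; at an adjusted p under 0.01, 476 were lower. The fit of all 9 libraries gave 253 higher, 129 lower and 27 at least 1.5-fold lower; fewer calls there go with the larger spread of the added libraries (14.8% against 5.22% and 3.76%). Leaving out each library in turn gave 652 to 751 higher, 551 to 714 lower, 132 to 149 at least 1.5-fold higher and 46 to 61 at least 1.5-fold lower. Same-numbered libraries did not deviate together (correlations of −0.003, 0.04 and 0.02 over genes), so the numbers are not taken to pair them; with the replicate block the counts were 827, 742, 145 and 59. Of 263 named genes, 141 were no longer called in the fit of 9, 18 without composition factors and 14 with DESeq2, and 9 to 26 when single libraries were left out; no named gene changed direction under any alternative run. The medians of 51 of 67 lists kept their sign under all alternatives run, and 16 did not: 15 with a median close to 0, and the meiosis and sporulation list, whose median went from −0.20 to 0.02 with at least 100 counts in 3 libraries. The lowest library total, 14380639 counts, limits what can be read from features under 10 CPM.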

Other observations

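Several genes outside the lists, singled out after their values were seen, differed by 1.5-fold or more. TAH11, the yeast gene of the replication licensing factor Cdt1, was at 92.9, 88.5 and 94.2 CPM in the wild type and at 145, 135 and 138 CPM in the deletion strain, a rise of 0.60 ± 0.05 on the log2 scale while most called replication genes fell. LST8, a shared subunit gene of the TOR complexes, had 83.9, 86.5 and 87.7 CPM in the deletion libraries against 51.6, 48.2 and 53.3 CPM in the wild type (0.75 ± 0.06). CAB1, the pantothenate kinase gene that starts coenzyme A synthesis, was at 0.67 ± 0.05, SDT1, a nucleotidase gene, at 0.79 ± 0.05 and TMT1, a methyltransferase gene, at 0.79 ± 0.09. Falls of like size were in CHA1, a serine and threonine deaminase gene (−0.65 ± 0.05), and SPT21, a regulator of histone gene transcription (−0.61 ± 0.06), while the called core histone genes rose. CHA1 was at 303, 265 and 279 CPM in the wild type and at 187, 175 and 178 CPM in the deletion strain, with all deletion libraries below the wild type.

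Among 29 peroxisome biogenesis genes 5 rose (17.2%, beside 14.1% over all genes). The rises were 3 without deletion replicate 1 or 3 or without composition factors, and 1 in the fit of 9. PEX21, PEX27 and PEX25 were at 0.54 ± 0.08, 0.42 ± 0.09 and 0.39 ± 0.05. Of 15 genes of tail-anchored protein insertion 5 rose, 3 without deletion replicate 2 or wild-type replicate 1 or 3 or without composition factors, led by SGT2, a co-chaperone gene that is also in the Hsf1 list (0.60 ± 0.03). Of 22 genes of the CCT chaperonin, prefoldin, tubulin and actin 2 rose (9.09%) and 1 fell (4.5%), beside 14.1% and 12.7% over all genes. Of 12 ribosome-associated chaperone genes 3 fell (8 without composition factors), ZUO1, SSZ1 and NAT1 (−0.17 ± 0.04, −0.14 ± 0.04 and −0.15 ± 0.04). Of 209 features without a match in the annotation 18 were higher and 1 lower, with a median of 0.13. Both are smaller shares than the 14.1% higher and 12.7% lower over all genes, so these features were called less often than genes in general. For snR17a, the U3 RNA that guides ribosomal RNA cleavage, deletion libraries gave 12.6, 12 and 13.5 CPM (0.77 ± 0.12). Wild-type libraries gave 7.55, 7.88 and 6.95 CPM.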
